A study of Mus musculus with 4 samples.

Results

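The 9 genes described here encode transcription factors that give lymphatic endothelial cells (LECs) their identity or shape the valves of lymphatic vessels: *Prox1*, *Nr2f2*, *Nr2f1*, *Hhex*, *Maf*, *Tbx1*, *Gata2*, *Foxc2* and *Foxc1*. They were chosen by symbol from 55385 genes in a table of normalized read counts, and all 9 were found in it. The study asked how LECs differ in mouse embryos with a mutant *Osr1* gene, which encodes a zinc finger transcription factor of embryonic connective tissue cells. LECs were sorted as CD45-negative cells positive for PDPN and CD31 (PECAM1) from the trunk of E13.5 embryos, after limbs, tail, inner organs and, by the study's methods, the cranial tissue down to the tongue had been taken off. Each of the 4 RNA-seq libraries pooled cells of 8 to 10 embryos, 2 libraries to a group. The first group is labelled Osr1GCE/GCE and is homozygous for GCE, an allele that places an eGFP-CreERT2 cassette at *Osr1*. The second group, Osr1controls, is labelled wild type and by the study's methods combined Osr1+/+ and Osr1GCE/+ embryos, in a mixture that the sources used here do not give. Strain and embryo sex are not given either. In an embryo with the allele every cell carries it, and because embryos were pooled, a spread between replicates is a spread between pools.

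LECs arise mainly from venous endothelium when SOX18 and NR2F2 (COUP-TFII) switch on *Prox1*, and PROX1 then keeps the cells lymphatic, in part through a feedback loop with the VEGFC receptor that *Flt4* encodes. Later, cells at sites of disturbed flow raise PROX1, GATA2 and FOXC2 and build valves. Mutations of *GATA2* and *FOXC2* cause lymphoedema in people.

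*Osr1* was read higher, not lower, in the libraries labelled Osr1GCE/GCE, at 168 and 303 normalized counts in replicates 1 and 2, against 32.8 and 30.4 in Osr1controls. Its log2 fold change was 2.80 (SE 0.31, adjusted p = 0.0262, limma). A count per gene does not separate reads of the GCE allele from reads of an intact one, so *Osr1* could not serve as a check of the labels, and the group is called by its label throughout. The sort markers were present in all libraries. *Pdpn* had 4936 and 5609 normalized counts in the libraries labelled Osr1GCE/GCE and 3318 and 3564 in Osr1controls, and *Pecam1* 28393 and 25400, against 23596 and 22279 in Osr1controls. Of 9 LEC marker genes, *Ccl21a*, which encodes a chemokine of LECs, was counted at 1.05 to 2.17 normalized counts in a library. The mouse genome holds near-identical copies of it, between which reads can be split or dropped, so this value is uncertain. Reads in genes ranged over 31586765 to 53438492 per library. The fewest reads behind a member's value, for *Foxc2* in the second library labelled Osr1GCE/GCE, were 517, a counting error of 4.40%, and the lowest library of *Prox1* on 20850 reads, an error of 0.693%. Counting errors of the other members at their lowest library lay between these.

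*Nr2f2*, *Maf* and *Hhex* rose in the libraries labelled Osr1GCE/GCE, and no member fell. Their levels were 1.58, 1.58 and 1.45 times the Osr1controls level. A gene was called when its adjusted p over all tested genes was under 0.05, its absolute log2 fold change was at least 0.3 and its mean TPM was over 1. Called members were 3 of 9, all of them higher, while 2.89% of 19479 tested genes were called, 1.13% as higher and 1.75% as lower. Lower genes were 60.7% of all calls, against 49.5% with TMM factors, 48.5% with edgeR and 70.9% with scaling to library totals. All 9 members had positive fold changes, where 47.2% of tested genes did, although *Foxc1* was at −0.0012 with library totals, and *Foxc1* and *Nr2f1* at −0.11 and −0.071 with scaling to pan-endothelial genes. The median log2 fold change was 0.54 over the members and −0.02 over all tested genes. The groups did not overlap, with the libraries labelled Osr1GCE/GCE above Osr1controls, for 6 members and for 24.7% of tested genes. *Prox1*, with the largest fold change of the 9, and *Tbx1*, with one between those of *Maf* and *Hhex*, did not pass the test, and their Osr1controls libraries lay far apart. With 2 libraries against 2, the smallest two-sided p of an exact permutation test is 0.333, so each p below comes from the limma model over all genes. In bulk RNA, fewer cells of a type and less RNA per cell cannot be told apart.

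**Figure D1:**
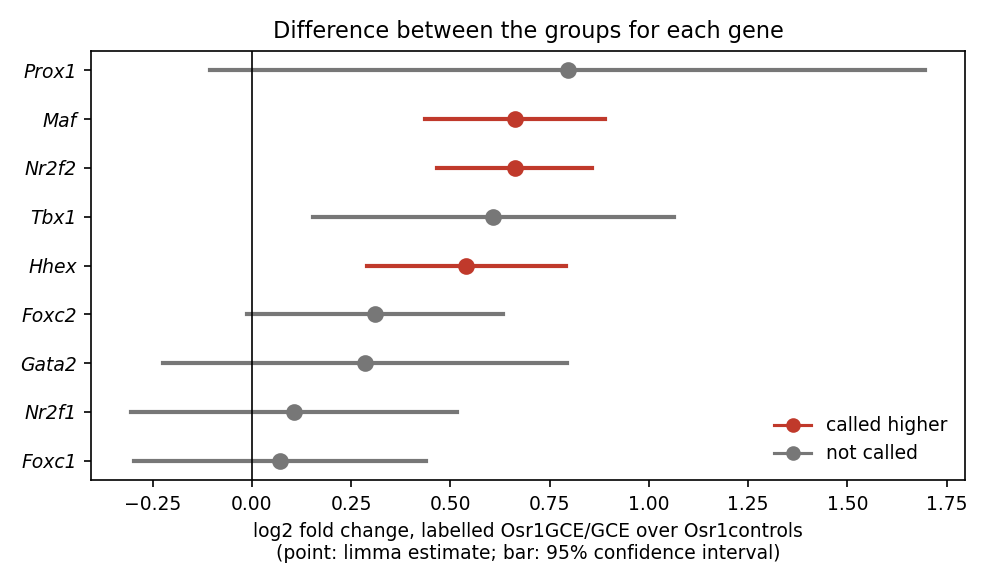
Log2 fold change of each gene, libraries labelled Osr1GCE/GCE over Osr1controls, on the horizontal axis, with the limma estimate as a point and its 95% confidence interval as a bar. The intervals of *Maf*, *Nr2f2* and *Hhex*, called higher, lie above 0.28, and that of *Tbx1* lies above 0 without being called. The *Prox1* interval is the widest of the 9, at −0.11 to 1.70.

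*Nr2f2* encodes COUP-TFII, an orphan nuclear receptor that holds veins in a venous state and works with PROX1 in LECs. The gene (ENSMUSG00000030551.14) lies on the minus strand of chr7:70351944-70366735 (mm10). It had 6180 and 6399 normalized counts in the libraries labelled Osr1GCE/GCE and 3956 and 3992 in Osr1controls. Both pairs of replicates lay close together and well apart from each other. In TPM, normalized counts per exon length scaled to a fixed library total, *Nr2f2* averaged 68.8 ± 1.98 in the libraries labelled Osr1GCE/GCE and 45.8 ± 1.09 in Osr1controls (SD, n = 2 each). Its log2 fold change was 0.66 (SE 0.086, 95% interval 0.47 to 0.86, adjusted p = 0.0276, limma). The antisense gene *B130024G19Rik* shares 643 bases, 7.46%, of its exons, and unstranded reads there cannot be divided between them. That gene had 61.9 and 60.7 normalized counts in the libraries labelled Osr1GCE/GCE and 49.9 and 49.2 in Osr1controls, far fewer than *Nr2f2*.

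*Nr2f1*, on the minus strand of chr13:78188973-78199757 (ENSMUSG00000069171.14), encodes COUP-TFI, the close relative of COUP-TFII. It had 1456 and 1397 normalized counts in the libraries labelled Osr1GCE/GCE and 1604 and 1094 in Osr1controls. The Osr1controls libraries lay on both sides of the others. The log2 fold change was 0.11 (SE 0.17, 95% interval −0.30 to 0.52, adjusted p = 0.776, limma). The ratio of *Nr2f2* to *Nr2f1* TPM, chosen after the values were seen, was 2.51 and 2.70 in the libraries labelled Osr1GCE/GCE and 1.46 and 2.16 in Osr1controls. *A830082K12Rik* shares 123 bases, 2.42%, of the exons of *Nr2f1*. It had 305 and 325 normalized counts in the libraries labelled Osr1GCE/GCE, against 267 and 211 in Osr1controls.

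*Hhex* encodes a homeobox factor that acts upstream of the VEGFC, FLT4 and PROX1 axis in zebrafish and mouse. The gene (ENSMUSG00000024986.12) lies on the plus strand of chr19:37434810-37440731, with no gene overlapping its exons. It had 1872 and 2008 normalized counts in the libraries labelled Osr1GCE/GCE and 1433 and 1240 in Osr1controls. The groups did not overlap, and each pair of replicates differed less than the groups did. The TPM averaged 36.2 ± 1.94 in the libraries labelled Osr1GCE/GCE and 26.3 ± 2.22 in Osr1controls (SD, n = 2 each). The log2 fold change was 0.54 (SE 0.11, 95% interval 0.29 to 0.79, adjusted p = 0.0444, limma), the closest of the 3 called members to the threshold.

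*Maf* encodes c-MAF, a basic leucine zipper factor found in LECs, and lies on the minus strand of chr8:115682942-115707794 (ENSMUSG00000055435.6). It had 6282 and 7193 normalized counts in the libraries labelled Osr1GCE/GCE and 4118 and 4381 in Osr1controls. The groups did not overlap. TPM averaged 77.1 ± 7.69 in the libraries labelled Osr1GCE/GCE and 51.3 ± 3.14 in Osr1controls (SD, n = 2 each), and the log2 fold change was 0.66 (SE 0.099, 95% interval 0.44 to 0.89, adjusted p = 0.0281, limma). *Gm15655* shares 440 bases, 5.34%, of its exons and had 3.6 to 8.4 normalized counts in a library, too few for the test.

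*Prox1*, the gene that sets and holds LEC fate, was the most abundant of the 9. It lies on the minus strand of chr1:190118035-190170714 (ENSMUSG00000010175.13). It had 36935 and 31263 normalized counts in the libraries labelled Osr1GCE/GCE and 14850 and 25816 in Osr1controls. The groups did not overlap, and the first Osr1controls library stood far below the second. TPM averaged 383 ± 43.5 in the libraries labelled Osr1GCE/GCE and 242 ± 96.1 in Osr1controls (SD, n = 2 each). The log2 fold change of 0.80 was the largest among the members but had an SE of 0.31 and an adjusted p of 0.275 (limma), and the Osr1controls replicates alone differed by 0.80 on the log2 scale. Without Osr1controls replicate 1 the fold change was 0.40, and without Osr1controls replicate 2 it was 1.19, each with a single Osr1controls library left. *Prox1os*, an antisense RNA gene sharing 133 bases or 1.59% of the *Prox1* exons, had 30.4 and 35.9 normalized counts in the libraries labelled Osr1GCE/GCE and 18.5 and 19.9 in Osr1controls (log2 fold change 0.75, adjusted p = 0.252).

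*Tbx1*, on the minus strand of chr16:18580979-18590671 (ENSMUSG00000009097.10), encodes a T-box factor that mice need for gut lymphatics and that activates *Flt4*. It had 5839 and 4670 normalized counts in the libraries labelled Osr1GCE/GCE and 2897 and 4050 in Osr1controls. As for *Prox1*, the groups did not overlap and the first Osr1controls library was the lowest of the 4. The log2 fold change was 0.61 (SE 0.19, 95% interval 0.15 to 1.06, adjusted p = 0.140, limma). It was 0.37 without Osr1controls replicate 1, 0.85 without Osr1controls replicate 2 and 0.45 without replicate 1 labelled Osr1GCE/GCE. Each of these fits leaves a single library in the group concerned. DESeq2 on the recovered reads called it at 0.61 (adjusted p = 0.00908).

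*Gata2*, *Foxc2* and *Foxc1*, the factors best known from valves, did not pass the test. *Gata2* encodes a zinc finger factor that valve cells need, and lies on the plus strand of chr6:88193891-88207032 (ENSMUSG00000015053.14). It had 5151 and 3793 normalized counts in the libraries labelled Osr1GCE/GCE and 3116 and 4223 in Osr1controls, so the groups overlapped. Its log2 fold change was 0.28 (SE 0.20, 95% interval −0.22 to 0.79, adjusted p = 0.484, limma). The forkhead gene *Foxc2* (ENSMUSG00000046714.7, plus strand of chr8:121116171-121118895), which drives valve formation, was the least abundant member. It had 784 and 640 normalized counts in the libraries labelled Osr1GCE/GCE and 553 and 590 in Osr1controls. The groups did not overlap, by a gap of 640 against 590, and the log2 fold change was 0.31 (SE 0.14, 95% interval −0.01 to 0.63, adjusted p = 0.251, limma).

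*Foxc1*, the relative of *Foxc2* that shares many of its roles in lymphatic valves, lies on the plus strand of chr13:31806633-31812476 (ENSMUSG00000050295.4). It had 2059 and 1460 normalized counts in the libraries labelled Osr1GCE/GCE and 1692 and 1611 in Osr1controls. The Osr1controls values lay between the other pair. The log2 fold change was 0.07 (SE 0.16, 95% interval −0.30 to 0.44, adjusted p = 0.841, limma). The ratio of *Foxc2* to *Foxc1* TPM was 0.817 and 0.940 in the libraries labelled Osr1GCE/GCE and 0.702 and 0.786 in Osr1controls. No gene shares exon bases with *Gata2*, *Tbx1*, *Foxc1* or *Foxc2*.

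**Figure D2:**
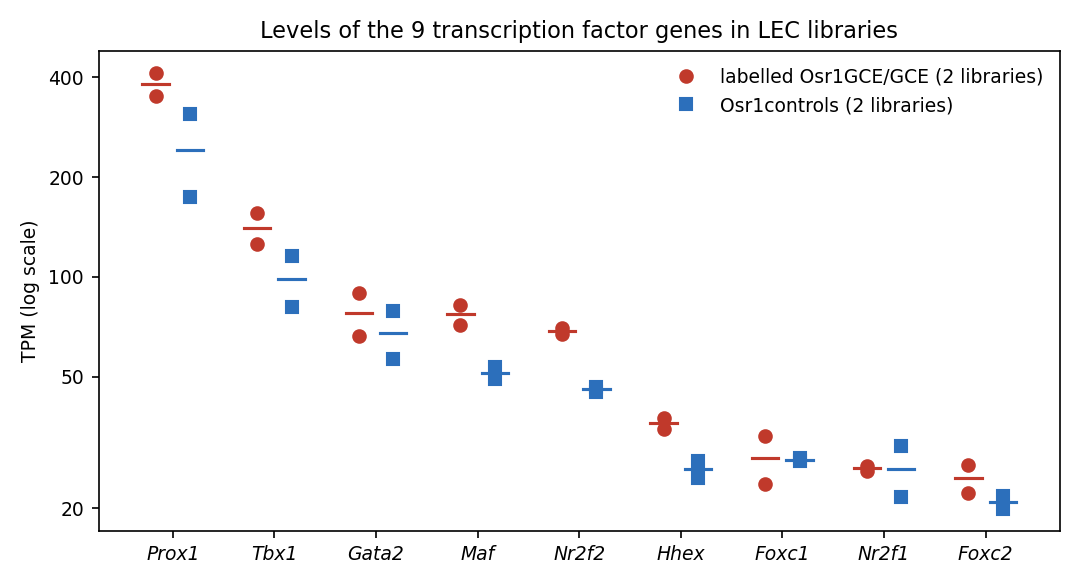
TPM of each gene on a log axis, one point per library, with the 2 libraries labelled Osr1GCE/GCE as circles left of the 2 Osr1controls libraries as squares, and genes ordered by mean TPM. *Prox1* runs from 174 to 414 TPM and *Foxc2* from 19.9 to 27.0, and the Osr1controls squares of *Prox1* lie farther apart than those of *Nr2f2* at 45.0 and 46.6.

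By mean TPM over the 4 libraries the order was *Prox1* (312), *Tbx1* (120), *Gata2* (72.9), *Maf* (64.2), *Nr2f2* (57.3), *Hhex* (31.2), *Foxc1* (28.2), *Nr2f1* (26.3) and *Foxc2* (22.8). *Prox1* exceeded 97.8% of tested genes by this measure. Of the 8 pairs of neighbours in this order, only *Prox1* and *Tbx1*, and *Nr2f2* and *Hhex*, had ranges over libraries that did not overlap. *Tbx1* exceeded *Gata2*, and *Maf* exceeded *Nr2f2*, in 4 of 4 libraries, although their ranges overlapped. *Hhex*, *Foxc1*, *Nr2f1* and *Foxc2* had no fixed order, each standing above the next in 2 of 4 libraries. For *Hhex* and *Foxc1* the order followed the groups. *Hhex* was higher in the libraries labelled Osr1GCE/GCE (34.8 against 33.1 and 37.6 against 23.6 TPM). It was lower in Osr1controls (27.8 against 28.4 and 24.7 against 27.7 TPM).

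Promoter sequences from RefSeq (GRCm38.p6, the assembly of mm10), from 250 bases before to 50 bases after a transcription start, matched 7 of the 9 genes, all but *Maf* and *Foxc2*, with 11 windows. Those of *Nr2f2* and *Hhex*, the called genes with a window, and of *Prox1*, the gene downstream of both, are shown because they differ widely in base composition. All are 5′ to 3′ on the gene's strand. Capitals mark CCAAT boxes (CCAAT or its reverse ATTGG) and a TATA box (TATAAA or its reverse TTTATA). The *Nr2f2* window is chr7:70366697-70366996 (minus strand), that of *Hhex* chr19:37434591-37434890 (plus strand), and the upstream one of the pair for *Prox1* chr1:190170778-190171077 (minus strand).
Nr2f2: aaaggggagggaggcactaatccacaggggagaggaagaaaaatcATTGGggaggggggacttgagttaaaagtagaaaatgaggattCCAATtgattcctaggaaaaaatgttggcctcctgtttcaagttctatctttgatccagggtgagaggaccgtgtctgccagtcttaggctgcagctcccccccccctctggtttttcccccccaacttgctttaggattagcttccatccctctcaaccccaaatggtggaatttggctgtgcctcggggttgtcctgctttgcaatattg
Hhex: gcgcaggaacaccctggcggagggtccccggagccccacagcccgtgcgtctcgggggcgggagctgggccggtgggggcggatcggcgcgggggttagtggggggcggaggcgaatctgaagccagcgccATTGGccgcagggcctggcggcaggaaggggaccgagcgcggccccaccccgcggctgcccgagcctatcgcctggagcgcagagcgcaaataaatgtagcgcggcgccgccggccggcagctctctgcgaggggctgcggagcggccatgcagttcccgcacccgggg
Prox1: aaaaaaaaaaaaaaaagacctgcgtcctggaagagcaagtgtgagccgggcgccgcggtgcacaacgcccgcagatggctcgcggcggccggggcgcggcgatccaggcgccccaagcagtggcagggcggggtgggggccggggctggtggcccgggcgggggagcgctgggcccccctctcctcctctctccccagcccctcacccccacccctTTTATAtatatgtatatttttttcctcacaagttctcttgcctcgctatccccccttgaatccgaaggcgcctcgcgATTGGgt

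The *Nr2f2* window held 49.7% G and C and 2 CpG dinucleotides, with an observed over expected CpG ratio of 0.109, below the median of 0.384 over 32851 mouse windows. The *Hhex* window held 75.7% G and C and 37 CpGs, with a ratio of 0.878, and the *Prox1* window 64.3% and 25 CpGs, with 0.807. The median G and C content of all windows was 52.7%. CCAAT boxes, on either strand, stood at bases 46 and 89 of the *Nr2f2* window, at base 132 for *Hhex* and at base 294 for *Prox1*, and the TTTATA of *Prox1* at base 217. A CCAAT box was present in 5 of 11 member windows and 37.4% of all windows, and a TATA box in 1 of 11 and 13.6%. Short motifs of the factor families were searched on both strands too. The zinc finger motif AGATAA, which 11.2% of all windows hold, matched no member window. Neither did the nuclear receptor motif AGGTCA, held by 16.3%, the MAF motif TGCTGA, held by 19.5%, or the T-box motif AGGTGTGA, held by 1.28%. The forkhead motif TGTTTAC, held by 3.65%, matched 1 window, of *Nr2f1*. No matches overlapped each other in the member windows. Which start these cells use was not tested.

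The 3 calls depended on which libraries labelled Osr1GCE/GCE were used. A fit without a library leaves a single library in that group, so a gene's own spread then comes from the other group alone. Without replicate 1 of that label no member was called, and *Nr2f2*, *Maf* and *Hhex* had adjusted p of 0.0746, 0.0533 and 0.194 (limma), at log2 fold changes of 0.69, 0.76 and 0.59. Over all genes 25 were called in that fit, against 562 with all libraries. Without replicate 2 of that label only *Nr2f2* was called, among 216 genes. Without Osr1controls replicate 1 the same 3 members were called, among 816 genes. Without Osr1controls replicate 2 *Prox1* and *Tbx1* joined them, among 1427 genes. The fold change of *Nr2f2* stayed between 0.64 and 0.69 over these 4 fits, that of *Maf* between 0.56 and 0.76 and that of *Hhex* between 0.44 and 0.64. *Tbx1* ranged over 0.37 to 0.85, *Gata2* over 0.06 to 0.51 and *Foxc2* over 0.16 to 0.46. *Foxc1* ranged over −0.18 to 0.32 and *Nr2f1* over −0.17 to 0.38, so their direction depended on the libraries used.

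**Figure D3:**
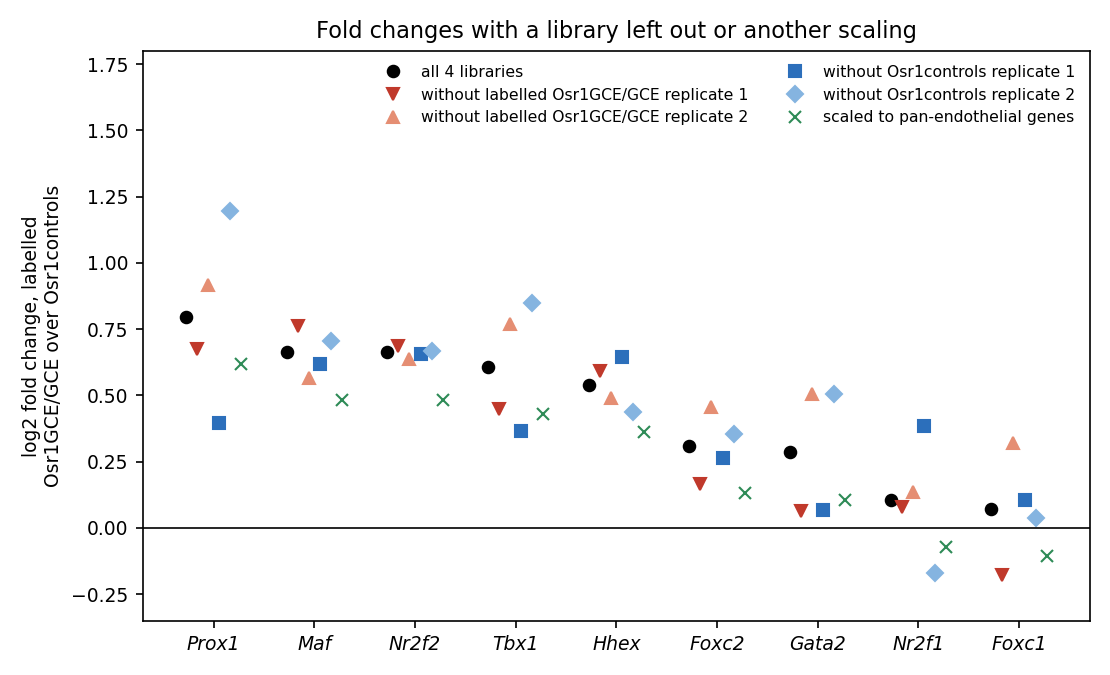
Log2 fold change of each gene, libraries labelled Osr1GCE/GCE over Osr1controls, with all 4 libraries, with each library left out, and after scaling to 6 pan-endothelial genes. The symbols of *Nr2f2* for all 4 libraries and with a library left out lie within 0.64 to 0.69, those of *Prox1* spread over 0.40 to 1.19, and *Foxc1* and *Nr2f1* fall on both sides of 0.

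Markers of some other cell types moved with the groups. LEC markers summed to 3316 and 3240 TPM in the libraries labelled Osr1GCE/GCE and to 1932 and 2473 TPM in Osr1controls. Of the 8 LEC markers tested, 5 rose, and *Ccl21a* was under the mean of 10 needed for the test. Fibroblast and mesenchyme markers summed to 1458 and 1732 TPM in the libraries labelled Osr1GCE/GCE and to 2888 and 2344 TPM in Osr1controls, and all 10 were lower, 3 of them called (*Col1a1*, *Twist1* and *Twist2*). Skeletal muscle markers summed to 99.1 and 104 TPM in the libraries labelled Osr1GCE/GCE and to 203 and 216 TPM in Osr1controls, with 4 of 7 called lower. Pericyte and smooth muscle markers summed to 125 and 128 TPM in the libraries labelled Osr1GCE/GCE and to 366 and 213 TPM in Osr1controls, with 2 of 5 called lower (*Acta2* and *Tagln*). *Tagln* shares 1241 exon bases, 62.4%, with *Gm48529* and 108 with the more abundant *Pcsk7*, so its value is uncertain.

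Blood endothelial markers summed to 1001 and 922 TPM in the libraries labelled Osr1GCE/GCE and 1018 and 809 TPM in Osr1controls. *Kdr*, the VEGF receptor gene that LECs also express, made up much of these sums, with 582 and 557 TPM in the libraries labelled Osr1GCE/GCE and 416 and 404 TPM in Osr1controls, and was the 1 of 8 called (higher). The other 7 markers were lower, and the median log2 fold change of the 8 was −0.46. *Flt1*, *Esm1*, *Apln* and *Nrp1* were lower without overlap between groups, at −0.96, −1.06, −0.72 and −0.68, and the first Osr1controls library was the highest for each. Groups without overlap were common, at 10442 of 19479 tested genes, 4819 of them higher. Macrophage and leukocyte markers summed to 65.2 and 59.6 TPM in the libraries labelled Osr1GCE/GCE and 70.6 and 65.4 TPM in Osr1controls, with none of 6 called. *Ptprc*, which encodes the CD45 used to remove leukocytes, was low in all libraries, with 70.6 and 54.5 normalized counts in the libraries labelled Osr1GCE/GCE and 62.0 and 61.7 in Osr1controls. Erythroid markers (896 and 556 TPM in the libraries labelled Osr1GCE/GCE, 1009 and 730 TPM in Osr1controls) had none of 4 called. Epithelial and mesothelial markers (54.7 and 150 TPM in the libraries labelled Osr1GCE/GCE, 161 and 131 TPM in Osr1controls) had none of 5 called. Schwann and neural crest markers (33.2 and 31.7 TPM in the libraries labelled Osr1GCE/GCE, 48.4 and 45.8 TPM in Osr1controls) had 1 of 4 called lower, *Erbb3*. The part of these cell type markers in the members' fold changes was not tested.

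**Figure D4:**
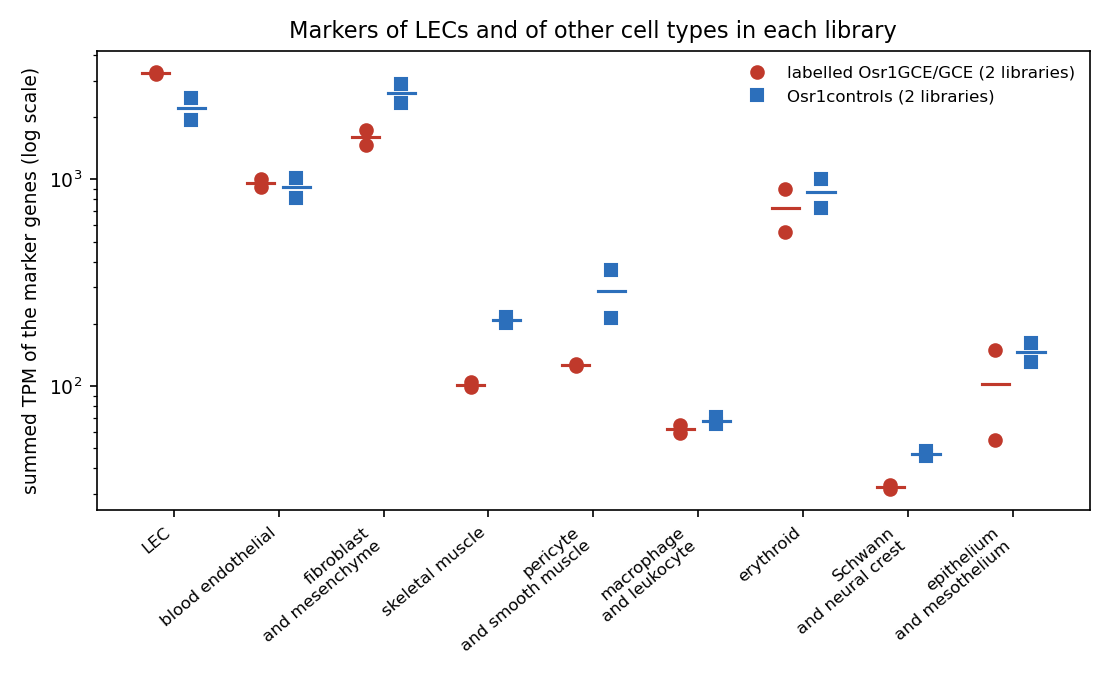
Summed TPM of each marker list on a log axis, one point per library, the libraries labelled Osr1GCE/GCE left of Osr1controls. The LEC sums of 3316 and 3240 in the libraries labelled Osr1GCE/GCE lie above the 1932 and 2473 of Osr1controls, and the fibroblast, skeletal muscle, pericyte and Schwann sums, and by a narrow gap the macrophage sums, lie below those of Osr1controls.

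Set against endothelial content, the members split. Per 100 TPM of the pan-endothelial gene *Pecam1*, a scale chosen after the values were seen, 5 of 9 members did not overlap between groups and were higher, as did 7.17% of tested genes, while 55.2% were lower without overlap. *Nr2f2* stood at 15.7 and 18.2 in the libraries labelled Osr1GCE/GCE and 12.1 and 12.9 in Osr1controls. *Maf* stood at 16.7 and 21.4 in the libraries labelled Osr1GCE/GCE and 13.2 and 14.9 in Osr1controls, and *Hhex* at 8.12 and 9.74, against 7.48 and 6.86 in Osr1controls. The libraries labelled Osr1GCE/GCE were thus apart for each called member. *Prox1* stood at 96.6 and 91.4 in the libraries labelled Osr1GCE/GCE and 46.7 and 86.0 in Osr1controls, and *Tbx1* at 36.4 and 32.6, against 21.7 and 32.2 in Osr1controls. These genes had their second Osr1controls library close below the others. *Gata2*, *Foxc1*, *Nr2f1* and *Foxc2* overlapped on this scale.

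Per 1000 TPM summed over the 9 LEC identity genes, also chosen afterwards, those 5 overlapped between groups. *Nr2f2*, for one, had 20.3 and 21.7 in the libraries labelled Osr1GCE/GCE and 23.3 and 18.8 in Osr1controls. *Maf* had 21.6 and 25.5 in the libraries labelled Osr1GCE/GCE and 25.4 and 21.6 in Osr1controls, and *Hhex* 10.5 and 11.6, against 14.4 and 9.98 in Osr1controls. The other 4 were lower without overlap, as were 83.7% of tested genes, while 0.914% were higher without overlap. With the divisor itself higher in the libraries labelled Osr1GCE/GCE, most genes lay lower on this scale, and nothing about these 4 is read from the count. *Gata2* had 27.0 and 20.5 in the libraries labelled Osr1GCE/GCE and 29.3 and 31.8 in Osr1controls. *Foxc2* had 8.15 and 6.86 in the libraries labelled Osr1GCE/GCE and 10.3 and 8.82 in Osr1controls. *Foxc1* had 9.99 and 7.29, against 14.7 and 11.2 in Osr1controls. *Nr2f1* was the narrowest of these, with 8.10 and 8.01 in the libraries labelled Osr1GCE/GCE and 16.0 and 8.74 in Osr1controls. Scaling the fit to 6 pan-endothelial genes (*Pecam1*, *Cdh5*, *Erg*, *Fli1*, *Esam* and *Egfl7*), chosen after seeing the data, moved the median of all genes to −0.20 on the log2 scale, and 0.226% of genes were called higher and 7.16% lower. *Erg* and *Fli1* were themselves called higher in the unscaled values, and *Esam* went the other way, with 1185 and 1055 normalized counts in the libraries labelled Osr1GCE/GCE and 3375 and 1327 in Osr1controls. *Prox1* was then the only member called, at 0.62 (adjusted p = 0.0230, limma). *Nr2f2* had 0.48 (adjusted p = 0.133), *Maf* 0.48 (adjusted p = 0.131) and *Hhex* 0.36 (adjusted p = 0.365, limma). The SE of *Prox1* was 0.19 in this fit, against 0.31 unscaled, and that of *Nr2f2* 0.20, against 0.086. Division by factors of 1.03 and 0.858 moved the Osr1controls values of *Prox1* farther apart, so its smaller SE does not reflect closer Osr1controls libraries. *Prox1* is thus not read as standing out from the other members here.

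**Figure D5:**
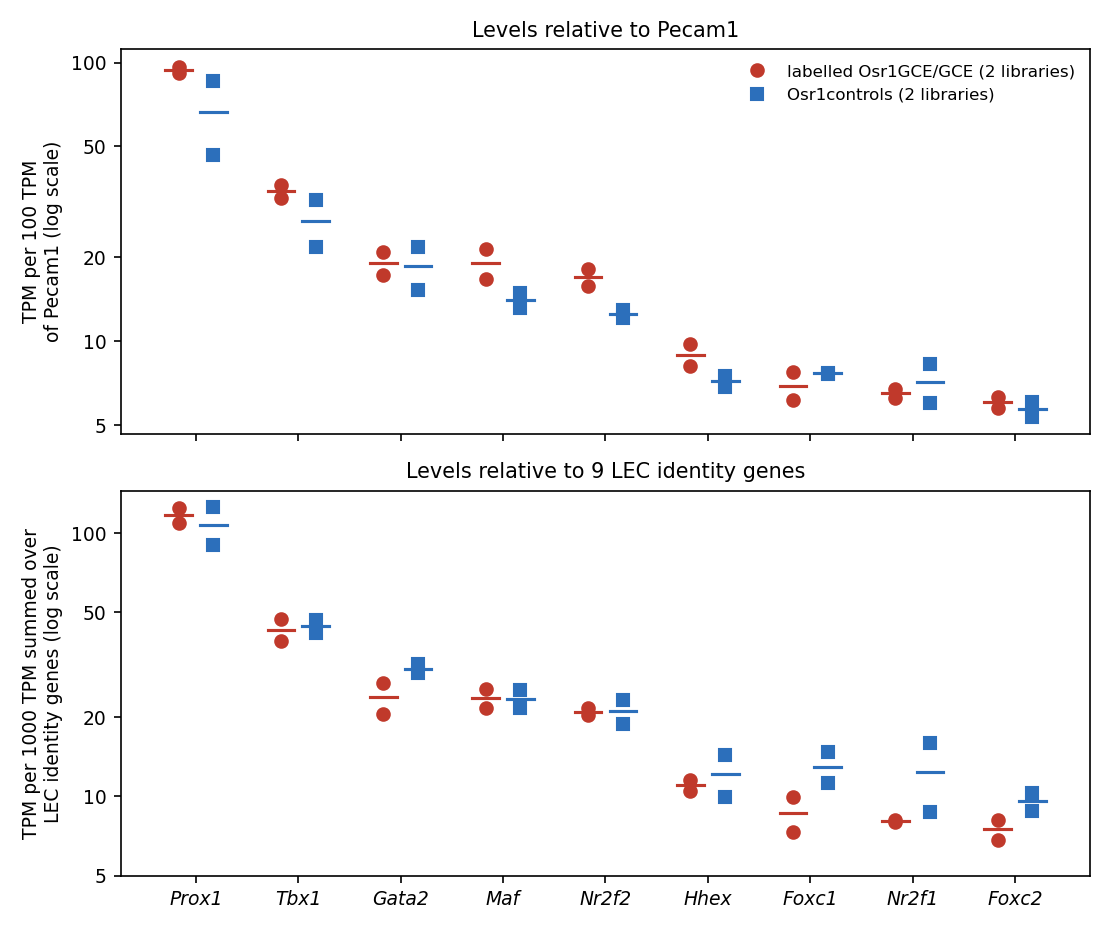
TPM of each gene per 100 TPM of *Pecam1* (upper panel) and per 1000 TPM summed over 9 LEC identity genes (lower panel), on log axes, one point per library, the libraries labelled Osr1GCE/GCE left of Osr1controls. *Nr2f2*, at 15.7 and 18.2 in the libraries labelled Osr1GCE/GCE and 12.1 and 12.9 in Osr1controls, separates in the upper panel and overlaps in the lower, and *Gata2*, at 27.0 and 20.5, against 29.3 and 31.8 in Osr1controls, separates downward in the lower.

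Ratios between *Prox1* and its neighbours in the pathway overlapped between groups. *Prox1* to *Nr2f2* TPM was 6.14 and 5.02 in the libraries labelled Osr1GCE/GCE and 3.86 and 6.65 in Osr1controls. *Prox1* to *Flt4* was 0.572 and 0.538 in the libraries labelled Osr1GCE/GCE and 0.420 and 0.577 in Osr1controls. *Prox1* to *Tbx1* was 2.65 and 2.81 in the libraries labelled Osr1GCE/GCE and 2.15 and 2.67 in Osr1controls, and the first Osr1controls library gave the lowest of all 3 ratios.

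Other genes of the same network were read from the same fit. Some lists share genes with each other and with the cell type marker lists, so they are not independent results. Of 21 other endothelial transcription factors, 5 rose, none fell and 16 were not called, with a median log2 fold change of 0.20. *Lmo2*, a LIM-only cofactor, had 8723 and 7653 normalized counts in the libraries labelled Osr1GCE/GCE and 5340 and 5390 in Osr1controls (log2 fold change 0.61, adjusted p = 0.0317). The ETS factor gene *Erg* (0.54, adjusted p = 0.0333) and the basic helix-loop-helix gene *Tal1* (0.53, adjusted p = 0.0366) also rose. *Sox18*, the inducer of *Prox1*, was not called. It had 5766 and 4253 normalized counts in the libraries labelled Osr1GCE/GCE and 3337 and 5264 in Osr1controls (log2 fold change 0.24, adjusted p = 0.687), with the first Osr1controls library lowest, as for *Prox1*.

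Relatives of the members by gene family were read too. Of 23, none rose, 2 fell and 21 were not called, with a median log2 fold change of −0.42. *Gata4*, a GATA factor of mesenchyme and heart, had 110 and 99.1 normalized counts in the libraries labelled Osr1GCE/GCE and 228 and 230 in Osr1controls (log2 fold change −1.13, adjusted p = 0.0333). *Tbx4*, a T-box gene of limb and lung mesenchyme, had 248 and 269, against 400 and 535 in Osr1controls (log2 fold change −0.84, adjusted p = 0.0490).

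LEC identity genes, the same genes as the LEC markers above, rose in 5 of 8 tested, with a median of 0.62. *Mmrn1*, which encodes a secreted multimerin, had 55087 and 55941 normalized counts in the libraries labelled Osr1GCE/GCE and 26847 and 34195 in Osr1controls (log2 fold change 0.87, adjusted p = 0.0276). The VEGFC co-receptor gene *Nrp2* (0.71, adjusted p = 0.0276) and *Pdpn* (0.61, adjusted p = 0.0329) rose as well. *Flt4*, the receptor gene that PROX1 and TBX1 act on, had 63330 and 57005 normalized counts in the libraries labelled Osr1GCE/GCE and 34682 and 43879 in Osr1controls (0.62, adjusted p = 0.0434). Not called were *Reln* (0.80, adjusted p = 0.0520), *Lyve1* (0.23, adjusted p = 0.633) and *Stab2* (−0.46, adjusted p = 0.802, limma). *Lyve1* had 9677 and 9173 normalized counts in the libraries labelled Osr1GCE/GCE and 6314 and 10171 in Osr1controls. *Stab2* had 675 and 1043, against 2063 and 647 in Osr1controls. Both overlapped between groups.

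Of 30 valve genes, listed from general knowledge, 2 rose, 2 fell and 26 were not called, with a median of 0.07. Among those that rose, *Itga9* is also in the LEC identity list. *Itga9*, the integrin gene of valve leaflets, had 15777 and 14709 normalized counts in the libraries labelled Osr1GCE/GCE and 9868 and 10729 in Osr1controls (0.57, adjusted p = 0.0329), and *Tie1*, an endothelial receptor gene, rose by 0.42 (adjusted p = 0.0494). The matrix genes *Svep1* (−0.68, adjusted p = 0.0434) and *Lama5* (−0.74, adjusted p = 0.0487) fell. Of 14 arterial genes, *Unc5b* rose (0.49, adjusted p = 0.0495), *Gja5* fell (−1.81, adjusted p = 0.0406), and 12 were not called, with a median of −0.18. *Gja5* shares 165 exon bases with the more abundant *Gpr89*, so its value is uncertain. The count of called genes in these lists depended on the library left out. Without replicate 1 labelled Osr1GCE/GCE 1 valve gene was called and none of the other lists. Without replicate 2 of that label 2 other factors, 2 LEC identity genes, 2 valve genes, 3 arterial genes and 0 family relatives were called. Without Osr1controls replicate 1 the valve and arterial lists had 1 and 0 called, and without Osr1controls replicate 2 they had 8 and 7, the family relatives 7, and the other factors and LEC identity genes 5 and 7.

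Among 10065 tested genes with a mean TPM over 10, those whose pattern over the 4 libraries was nearest to that of *Prox1*, by root mean square difference of centred log2 values, were *Gm28875* (0.072), *Nhsl2* (0.075), *Phldb3* (0.093), *Gm16024* (0.096) and *Sgk3* (0.104). *Sgk3*, a kinase gene, had 13692 and 11640 normalized counts in the libraries labelled Osr1GCE/GCE and 5933 and 8447 in Osr1controls. *Tbx1* was the nearest member, at 0.148 with 13 genes nearer. *Gata2* (0.294), *Maf* (0.302), *Nr2f2* (0.303), *Foxc2* (0.348), *Hhex* (0.397), *Foxc1* (0.483) and *Nr2f1* (0.592) followed. The 4 values that define each pattern share their libraries and depth, so the distances are a description.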

How the data were processed

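Each of the 4 libraries held LEC RNA of pooled embryos. The authors used an unstranded TruSeq V2 kit. Alignment to mm10 (STAR), gene counts (featureCounts) and division by size factors (DESeq2) followed, with versions not given in the sources used here. Deposited signal values are these normalized counts. Gene IDs without their suffix were matched to GENCODE mouse release 21 for symbols and exon lengths (55144 found, 241 not found).

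Whole reads were recovered, 100% of values lying within 0.001 of a whole number. TPM were computed from normalized counts and exon lengths. Groups were compared with limma 3.58.1 (trend and robust options) (R 4.3.3). It was run on the log2 of the normalized count plus 1, for genes whose mean was 10 or more. This scale understates fold changes of low genes. P-values were Benjamini-Hochberg adjusted over all tested genes. They rest on the spread between pools, with the variance of each gene drawn towards that of genes of similar level. A p is thus not a measure of that gene's own spread alone. The count tests edgeR 4.0.16 and DESeq2 1.42.0, run on the recovered reads, called 443 and 1505 genes. Scripts were tested on simulated data with 200 changed genes in each simulation. There limma called 17.9% of genes with a simulated absolute log2 fold change of 0.5, 58.7% at 1 and 0.0899% of unchanged genes. A gene not called is thus not shown to be unchanged.

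The 9 genes, all lists and most alternatives (normalization, filter, pseudocount, test, replicate block, leaving out each library) were chosen with earlier results of these data known. Besides the members, the text names *Osr1*, *Pdpn*, *Pecam1*, genes overlapping members' exons, up to 3 called genes per list and direction with the smallest adjusted p, and the 5 genes most like *Prox1*. *Sox18*, *Flt4*, *Reln*, *Lyve1*, *Stab2*, the named cell type markers and the ratios were added after their values were seen. No deposited column was left out.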

Additional observations from a re-analysis of the deposited data

How the results depend on the processing

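The number of genes called was 562 (60.7% lower) and ranged over 25 to 1427 with a library left out. It was 1505 with DESeq2, 1120 with no filter on low values, 1488 at an adjusted p under 0.1, and 0 with limma without trend and robust options, where 3425 genes had an unadjusted p under 0.05. Members called numbered 3, 4 with DESeq2, 2 with library totals, where *Hhex* had an adjusted p of 0.0620, 0 without trend and robust options and 0 to 5 with a library left out. Lower calls made up 49.5% of 469 with TMM factors, 48.5% of 443 with edgeR and 70.9% of 677 with library totals.

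The correlation of deviations from the group means was −0.12 for each replicate number, over 19479 genes. With 2 libraries per group the deviations mirror each other, so both numbers give the same value by construction. A correlation this weak cannot show whether the libraries were paired. With the replicate block 125 genes and 2 members (*Nr2f2* and *Maf*) were called, with 2 LEC identity genes and 0 of the other lists. The crossed pairing, which blocks replicate 1 of each group with replicate 2 of the other, was added after seeing the data. It gave 1282 genes and 5 members. Since equal numbers correlated negatively, crossing them removes more spread by construction. No label gives this pairing, so the larger counts say nothing about whether it is real. Scaling to pan-endothelial genes, also added, gave 1439 genes (96.9% lower), 1 member, 1 other endothelial factor, 7 family relatives, 3 LEC identity genes and 4 arterial genes.

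Counts for the lists were 5 other factors, 2 family relatives, 5 LEC identity genes, 4 valve genes and 2 arterial genes, and all were 0 without trend and robust options. Family relatives numbered 1 with TMM factors, edgeR or a mean of at least 50, 4 with DESeq2 or no filter and 5 at an adjusted p under 0.1. Valve genes numbered 2 with TMM factors, edgeR or a mean of at least 50. They numbered 5 with library totals and 6 with DESeq2, no filter or an adjusted p under 0.1. Arterial genes numbered 4 with DESeq2 and 1 with a mean of at least 50. With a library left out the ranges were 0 to 5 other factors, 0 to 7 family relatives, 0 to 7 LEC identity genes, 1 to 8 valve genes and 0 to 7 arterial genes. The fold change of *Nr2f1* reversed to −0.17 without Osr1controls replicate 2 (range −0.17 to 0.38 with a library left out) and to −0.071 with pan-endothelial scaling. That of *Foxc1* reversed to −0.0012 with library totals, −0.18 without replicate 1 labelled Osr1GCE/GCE (range −0.18 to 0.32 with a library left out) and −0.11 with pan-endothelial scaling. The cause of these differences was not tested.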
